A study of Mus musculus with 8 samples.

Results

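The genes described here are 43 homeobox and paired-box transcription factor genes that are known for dividing the embryonic brainstem into regions. They were set as a list of gene names with no threshold on their values, and were looked up by gene identifier in each library's table of 38924 genes. The tables held 42 of them, and 36 had a count in at least 1 library. The symbol Hoxd4 matched no identifier in the tables. Its position lies within the gene model that the tables give for Hoxd3 (chromosome 2, 74711929 to 74748274, mm10), so the 2 genes cannot be separated here. Hoxa4, Hoxa5, Hoxb1, Hoxb3, Hoxc4 and Lbx1 had no count in any library.

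Messenger RNA bound to tagged ribosomes was collected from mouse embryos with the bacTRAP method, in which a transporter gene drives a tagged ribosomal protein in 1 neuron type. The 6 dopamine libraries came from midbrain and were labelled datL (n = 2), datM (n = 2), Lateral (n = 1) and Medial (n = 1), and the 2 serotonin libraries came from hindbrain. The design text names a dopamine transporter (Slc6a3) line and a serotonin transporter (Slc6a4) line, whereas the description of all 8 libraries names the Slc6a3 line JD1640. The tissue was taken at embryonic day 15, and midbrain marked as day 18 was then kept 3 days in culture. That mark stands in the file headers of Lateral and Medial only. The labels state no age difference between the other libraries and no number of animals, so the p-values measure the spread between libraries, which may be technical. The letters L and M are not spelled out. Libraries labelled datL or Lateral are called lateral-type here (n = 3), and those labelled datM or Medial medial-type (n = 3).

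Homeobox genes give each level of the neural tube its identity. Otx and related genes act in the forebrain and midbrain, En and Pax genes act around the border between midbrain and hindbrain, and Hox genes act from the hindbrain backwards. Hox proteins bind DNA together with cofactors of the TALE class, which include the Pbx and Meis proteins. LIM homeobox genes, Irx genes and Hmx genes then help to set which neuron types form within a level. Dopamine neurons of the midbrain and serotonin neurons of the hindbrain are born on opposite sides of the midbrain-hindbrain border.

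Total counts lay between 22417739 and 33216710 per library. The 4 datL and datM libraries, from a run folder named for October, detected 11708 to 12509 genes. The 4 others, all from lane 8, detected 13703 to 15656. Levels are given in CPM, counts scaled to the total of each library, and a library in which a gene had 0 counts could still have held it at up to 0.0903 to 0.134 CPM. Of 5 markers of dopamine neurons, Th, Slc6a3 and Nr4a2 were higher in every dopamine library. Th, the enzyme that makes the dopamine precursor, stood at 93.2 to 905 CPM in dopamine libraries and at 10.6 and 20.9 CPM in serotonin libraries. The other two did not separate that way: Pitx3 was at 0 to 4.01 CPM in dopamine libraries, against 0.170 and 0 CPM in serotonin, and Slc18a2, a transporter that both neuron types use, was at 0 to 166 CPM in dopamine libraries, against 275 and 305 CPM in serotonin. Slc6a4 stood at 0 in the 4 datL and datM libraries, 5.27 CPM in Lateral and 3.93 CPM in Medial, against 1196 and 1075 CPM in serotonin libraries. En1, which marks the midbrain and the front of the hindbrain, was counted in all 8 libraries, at 27.1 to 104 CPM in dopamine and 93.5 and 88.6 CPM in serotonin. Replicates were far apart. Among members with at least 10 counts in a pair, and with 0 counts set to 3, the median fold between replicates was 5.41 in datL (19 members), 9.38 in datM (16 members) and 1.78 in serotonin (28 members).

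**Figure D1:**
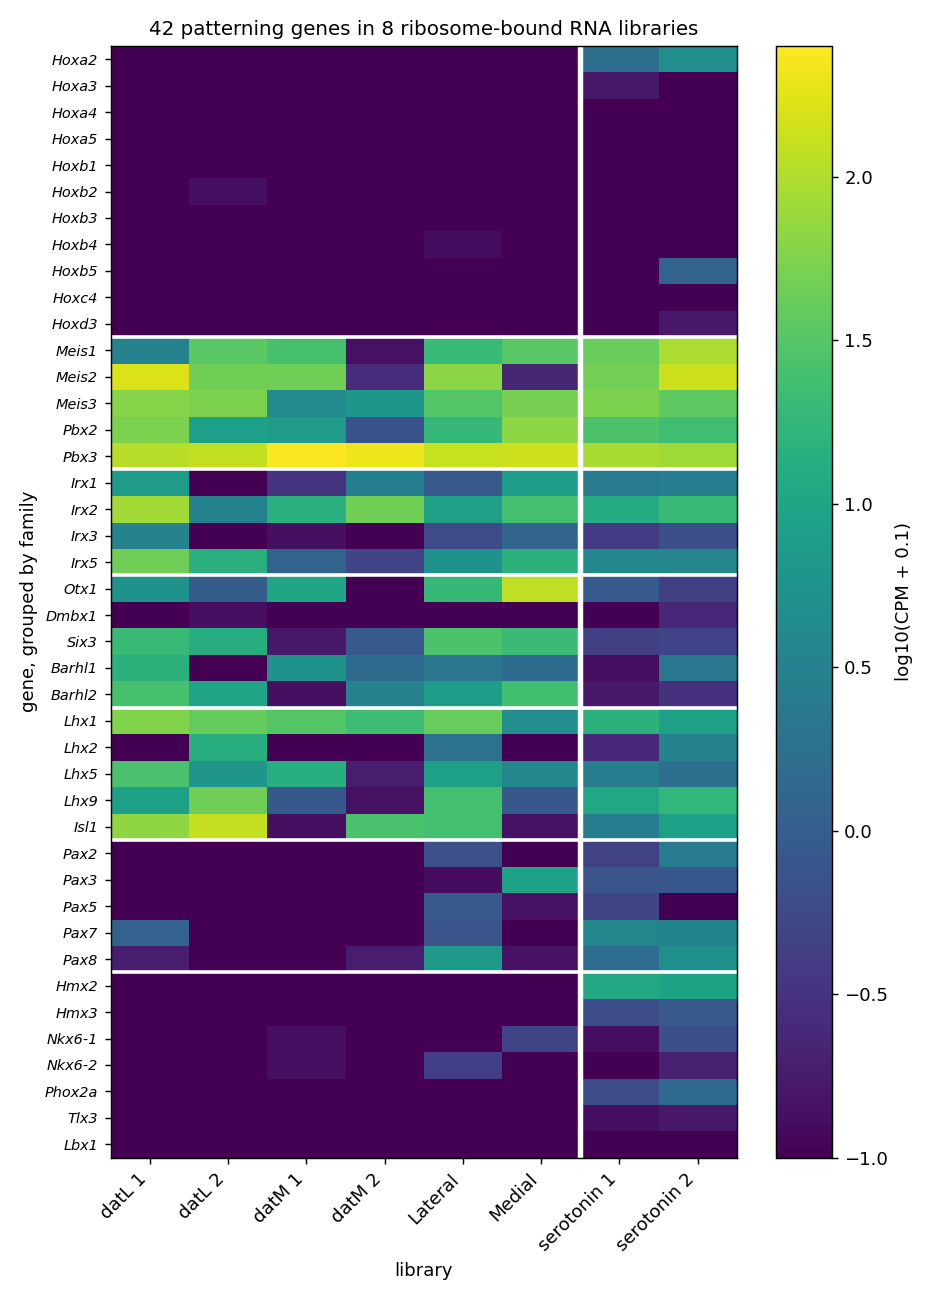
Levels of the member genes in each library, as log10 (CPM + 0.1) on the colour scale, with 42 genes in rows by family and libraries in columns, dopamine left of serotonin. Hoxa2, Hmx2, Hmx3 and Phox2a are empty in all 6 dopamine columns, and the Pax rows are nearly empty in the datL and datM columns.

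In dopamine against serotonin, 4 hindbrain genes, Hoxa2, Hmx2, Hmx3 and Phox2a, had 0 counts in all 6 dopamine libraries and between 15 and 332 counts in each serotonin library. No member passed an adjusted p of 0.05 by edgeR's quasi-likelihood test, and neither did any of the 13806 genes tested (0.0%). The smallest adjusted p of any gene was 0.108. By DESeq2 125 genes passed and by limma-voom 14, and 648 genes (4.69%) had an unadjusted p under 0.05 by edgeR. At an unadjusted p under 0.05, 1 of 28 tested members was higher in dopamine libraries, Barhl2, and 4 were lower, Hoxa2, Hmx2, Hmx3 and Phox2a, against 2.8% of all genes higher and 1.9% lower. These 4 passed the expression filter through the serotonin libraries alone. Barhl2, with 2 and 6 counts in the serotonin libraries, passed it through the dopamine libraries alone. The direction of these genes was set by the filter, so nothing is read from either share. In levels rather than tests, 7 of the 36 counted members (19.4%) lay lower in every dopamine library than in both serotonin libraries, against 7.51% of all 18712 counted genes. These were Hoxa2, Meis1, Pax7, Hmx2, Hmx3, Phox2a and Tlx3, the last on 1 and 2 serotonin counts. All but Meis1 and Pax7 belong to the counted members through serotonin alone, so nothing is read from that share. Pbx3 alone (2.78%) lay higher in every dopamine library, against 2.33% of all genes. The median log2 fold change of the 28 tested members was 0.22, and that of all genes was 0.26. Without TMM scaling the median of all genes was 0.14. In bulk libraries, fewer cells of a type and less RNA per cell cannot be told apart.

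The Hox genes mark hindbrain segments, and Hoxa2 is the one whose domain reaches farthest forward in the hindbrain. Hoxa2 (ENSMUSG00000014704.8, chromosome 6, 52162351 to 52165413, minus strand, mm10) had 0 counts in all 6 dopamine libraries, against 47 and 143 counts in serotonin replicates 1 and 2. In serotonin these counts equalled 1.59 and 4.90 CPM. Both serotonin libraries therefore stood apart from every dopamine library, and replicate 2 was well above replicate 1. Against a floor of 3 counts over the dopamine group, Hoxa2 was at least 168-fold lower in dopamine libraries. That bound covers counting error and not the spread between libraries, and was 82.8-fold without serotonin replicate 2 and 255-fold without serotonin replicate 1. The unadjusted p of edgeR was 0.00315 and the adjusted p was 0.352. The tables assign 267 exon bases to both Hoxa2 and Hoxa3, and Hoxa3 had at most 2 counts in a library.

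The other member Hox genes were counted sparsely. Hoxb5, which acts in the hind part of the hindbrain, had 32 counts in serotonin replicate 2 and 0 in the 7 other libraries. Hoxa3 had 2 counts in serotonin replicate 1 only, and Hoxd3 had 2 in serotonin replicate 2 only. Hoxb2 had 1 count in datL replicate 2 and Hoxb4 had 1 count in Lateral. Summed over the 11 member Hox genes found, dopamine libraries had 0 or 1 count each. Serotonin replicate 1 had 49 counts, or 1.66 CPM (exact Poisson 95% interval 1.23 to 2.2), and replicate 2 had 177 counts, or 6.07 CPM (5.21 to 7.03). These intervals do not overlap, so the Hox level differed between the serotonin replicates by more than counting error. Hoxa2 supplied most of the counts in each.

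Hox, Pbx and Meis proteins can bind DNA jointly, so the start sites of the members were read for the letters TGATNNAT, a PBX-HOX motif, and TGACAG, a MEIS motif. Both strands of RefSeq windows (GRCm38.p6) from 250 bases before to 50 after each start were searched, and 32 members had a window. The matches below belong to Hoxa2, the Hox member with the most counts, to Hoxb1, whose binding of Pbx with Hox protein is known in mouse, and to 2 members of the other families. Capitals mark the motif and each line runs 5′ to 3′ on the strand named.
Hoxa2, PBX-HOX, chr6:52164928-52164949, plus strand: gtctgttTGATTGATccaaaaa
Hoxa2, MEIS, chr6:52164862-52164883, minus strand: caatcatgTGACAGccaattcg
Hoxb1, PBX-HOX, chr11:96365589-96365610, plus strand: tggggggTGATGGATgggcgct
Lhx9, MEIS, chr1:138842556-138842577, minus strand: aggaggtaTGACAGgtctttgt
Six3, MEIS, chr17:85620687-85620708, plus strand: ggcagggcTGACAGtgattggc
The PBX-HOX letters occurred in 3 of the 32 members with a window (9.38%), against 10.1% of all 27025 genes with one. The MEIS letters occurred in 6 of the 32 members (18.8%), against 21.6% of all genes. Neither share was far from that of all genes, and a match describes the sequence, not binding. Hoxa2 was the member with both motifs, and Hoxb1, with a match of its own, had no count in any library.

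Among the hindbrain and ventral genes, Hmx2, Hmx3 and Phox2a showed the same arrangement as Hoxa2. Hmx2 and Hmx3 are neighbouring homeobox genes on chromosome 7 that are known from the inner ear, the hypothalamus and the hindbrain. Hmx2 (ENSMUSG00000050100.7, 131548773 to 131556588, plus strand) had 0 counts in all 6 dopamine libraries, against 332 and 274 counts, or 11.3 and 9.40 CPM, in serotonin libraries. Hmx3 (ENSMUSG00000040148.5, 131542867 to 131544925, plus strand) had 0 counts in all 6 dopamine libraries, against 16 and 23 counts, or 0.543 and 0.789 CPM, in serotonin libraries. The 2 genes thus separated the neuron types in every library, with Hmx2 the far more abundant. Hmx2 was at least 537-fold lower in dopamine libraries (edgeR unadjusted p = 0.00466, adjusted p = 0.415). For Hmx3 the bound was at least 34.6-fold lower (edgeR unadjusted p = 0.00124, adjusted p = 0.328). By limma-voom Hmx2 passed the threshold, with an adjusted p of 0.0204, 1 of 14 genes that did.

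Phox2a, which specifies noradrenaline neurons and cranial motor neurons, had 0 counts in all 6 dopamine libraries, against 15 and 39 counts, or 0.509 and 1.34 CPM, in serotonin libraries. It was at least 47.8-fold lower in dopamine libraries, or 26.4-fold without serotonin replicate 2 (edgeR unadjusted p = 0.00154, adjusted p = 0.328). Tlx3, a hindbrain gene of noradrenaline and sensory relay neurons, had 0 counts in dopamine libraries, against 1 and 2 counts in serotonin libraries, too few for a fold. Altogether 5 of the 36 counted members (13.9%) had 0 counts in all dopamine libraries and counts in both serotonin libraries, against 0.962% of all counted genes. They were Hoxa2, Hmx2, Hmx3, Phox2a and Tlx3, and the counts of Tlx3 are too low to be told from absence. All 5 belong to the counted members through serotonin alone, so nothing is read from this share. Of 4 markers of noradrenaline neurons, 1 to 2 were counted in a dopamine library and 4 in each serotonin library. Their summed level was 30.5 to 462 CPM in dopamine libraries, nearly all of it Ebf2, and 25.1 and 69.1 CPM in serotonin libraries. Dbh and Slc6a2, which make and take up noradrenaline, were at 0 in all 6 dopamine libraries, whereas Dbh stood at 1.53 and 0.823 CPM in serotonin libraries. The part of noradrenaline neurons in the Phox2a result was not tested.

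Nkx6-1 and Nkx6-2, ventral genes of the hindbrain and spinal cord, were near the detection limit. Nkx6-1 reached 0.401 CPM in Medial, 0.0367 CPM in datM replicate 1 and 0 in the 4 other dopamine libraries, against 0.0339 and 0.549 CPM in serotonin libraries. Nkx6-2 reached 0.331 CPM in Lateral, 0.0367 CPM in datM replicate 1 and 0 in the 4 others, against 0 and 0.103 CPM in serotonin. The groups overlapped for both. Lbx1, a marker of dorsal sensory interneurons, had no count.

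**Figure D2:**
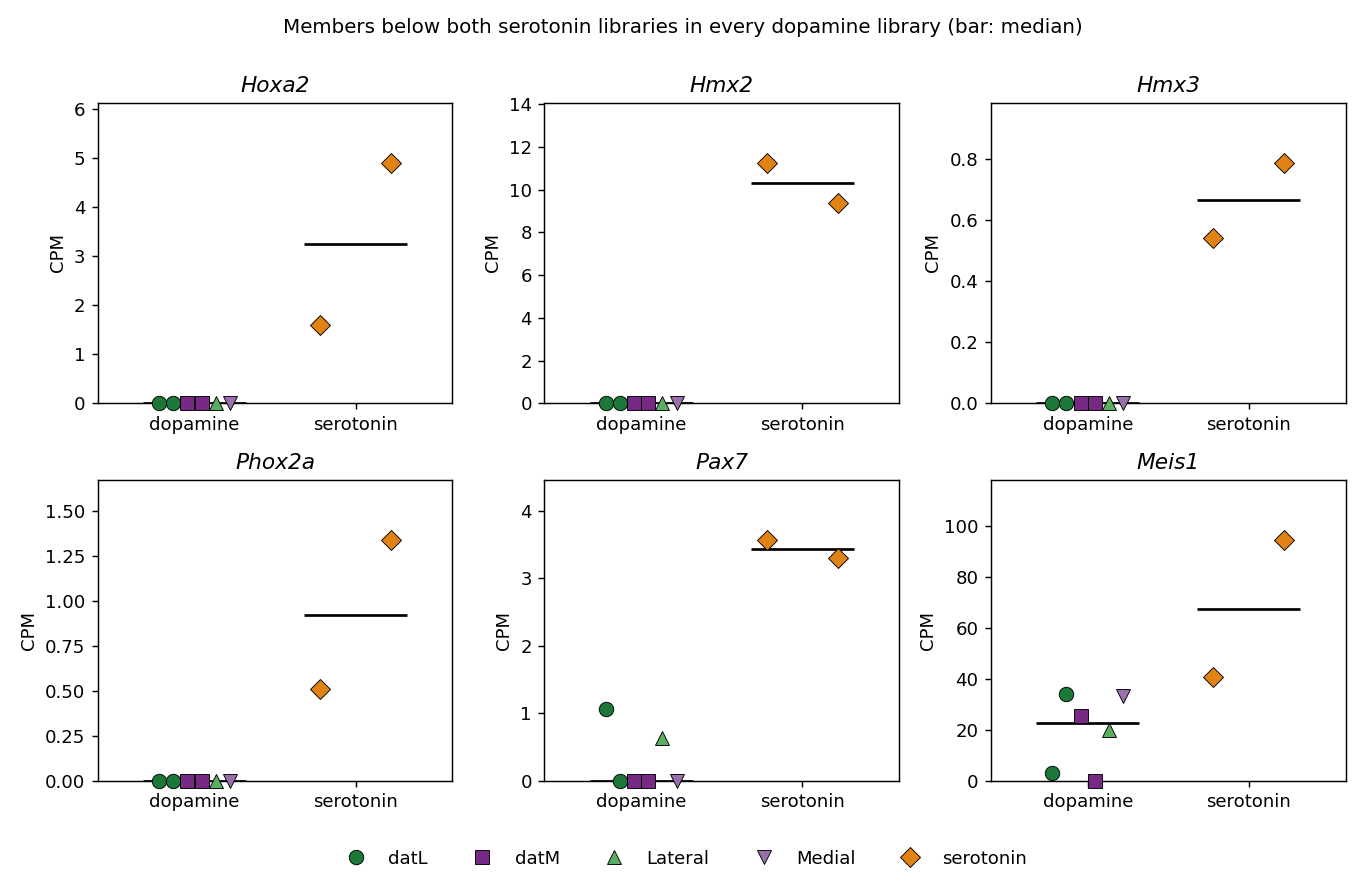
CPM of Hoxa2, Hmx2, Hmx3, Phox2a, Pax7 and Meis1 in each library, on a linear axis, with 1 point per library and bars at the group medians, dopamine left of serotonin. Every dopamine point lies under both serotonin points in each panel, and the dopamine points of Hoxa2, Hmx2, Hmx3 and Phox2a are all at 0.

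The 5 Pax genes divided the libraries by sequencing run as much as by neuron type. Pax2, Pax5 and Pax8 act at the midbrain-hindbrain border, while Pax3 and Pax7 mark the dorsal neural tube. Their summed level was 1.15 and 0 CPM in datL, 0 and 0.0832 CPM in datM, 8.73 CPM in Lateral and 9.46 CPM in Medial, against 6.55 and 11.4 CPM in serotonin libraries. The 2 dopamine libraries of lane 8 were thus at the serotonin level, and the 4 October libraries far under it. Run and the day 18 mark coincide among dopamine libraries and cannot be told apart. Pax8 carried the sum in Lateral, at 6.71 CPM, and Pax3 in Medial, at 9.37 CPM. Pax7 was the member of the family whose groups did not overlap: it stood at 1.06 CPM in datL replicate 1, 0.632 CPM in Lateral and 0 in the 4 other dopamine libraries, against 3.56 and 3.29 CPM in serotonin. Its log2 fold change was -3.41 (SE 2.33, edgeR unadjusted p = 0.171, adjusted p = 1.0). None of the 5 had an unadjusted p under 0.05 in dopamine against serotonin.

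The 5 TALE cofactors were counted in all 8 libraries. Pbx3 was the most abundant member of either group per length, at 25.8 CPM per kb of exon in dopamine and 14.4 CPM per kb in serotonin, and Meis3 was second, at 10.7 CPM per kb in dopamine and 14.1 CPM per kb in serotonin. Pbx3 (ENSMUSG00000038718.9, chromosome 2, 34171457 to 34373140, minus strand), a cofactor of Hox proteins, ranged from 109 to 241 CPM in dopamine libraries (median 133), against 94.3 and 81.0 CPM in serotonin. The groups did not overlap, but the lowest dopamine library was close to the higher serotonin library. The log2 fold change was 0.99 (SE 0.50, edgeR unadjusted p = 0.0728, adjusted p = 1.0), and within lane 8 it was 0.52 (SE 0.30).

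Meis1 (ENSMUSG00000020160.12, chromosome 11, 18880428 to 19018969, minus strand) went the other way. It ranged from 0.0416 to 33.9 CPM in dopamine libraries (median 22.6), against 40.7 and 94.6 CPM in serotonin. Its log2 fold change was -1.70 (SE 1.37, edgeR unadjusted p = 0.239, adjusted p = 1.0). In lane 8, with 19.9 CPM in Lateral and 33.1 CPM in Medial, it was -1.44 (SE 0.57, edgeR unadjusted p = 0.0454, adjusted p = 0.348). Meis2, Meis3 and Pbx2 overlapped between the groups. Meis2 spanned 0.134 to 168 CPM in dopamine libraries, against 49.5 and 140 CPM in serotonin libraries. It was almost absent from Medial and datM replicate 2, and datM replicate 2 was also the lowest dopamine library for Meis1 and Pbx2. Meis3 spanned 4.18 to 59.6 CPM in dopamine libraries, against 54.0 and 35.8 CPM in serotonin libraries. Pbx2 spanned 0.624 to 66.9 CPM in dopamine libraries, against 27.7 and 22.7 CPM in serotonin libraries.

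The 4 Irx genes lie in 2 clusters and help to divide the neural tube along both of its axes. Irx1 and Irx2 are on chromosome 13, Irx3 and Irx5 on chromosome 8. All 4 had a positive fold change in dopamine, with a median log2 value of 1.08, but none had an unadjusted p under 0.05 and the groups overlapped for each. Irx2 was the most abundant, at 2.98 to 83.8 CPM in dopamine libraries (median 19.3), against 12.2 and 20.1 CPM in serotonin. Irx5 spanned 0.416 to 45.8 CPM in dopamine (median 9.92), against 3.77 and 3.67 CPM in serotonin. Irx1 spanned 0 to 7.14 CPM in dopamine, against 2.51 and 2.71 CPM in serotonin. Irx3 spanned 0 to 3.17 CPM in dopamine, against 0.305 and 0.549 CPM in serotonin. All 4 were highest in datL replicate 1, with Medial level with it for Irx1, and Irx1, Irx2 and Irx3 were at their lowest, or tied for it, in datL replicate 2. For these 3 genes the datL replicates thus differed more from each other than the means of the neuron types did.

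The forebrain and midbrain genes had higher mean levels in dopamine libraries, apart from the barely counted Dmbx1. Otx1, Six3, Barhl1 and Barhl2 all had positive fold changes, with a median log2 value of 5.36. Otx1 acts in the front of the brain and the midbrain, Six3 is an anterior forebrain gene, and the Barhl genes mark subsets of diencephalic, midbrain and rhombic lip neurons. Barhl2 (ENSMUSG00000034384.10, chromosome 5, 106452514 to 106458440, minus strand) was at 25.6 and 9.46 CPM in datL, 0.0367 and 3.08 CPM in datM, 7.89 CPM in Lateral and 23.7 CPM in Medial, against 0.0679 and 0.206 CPM in serotonin. Only datM replicate 1, with 1 count, reached down to the serotonin level. The log2 fold change was 6.47 (SE 2.94, edgeR unadjusted p = 0.0489, adjusted p = 1.0), and DESeq2 gave 6.54 with an adjusted p of 0.0171. Barhl2 was the 1 member among the 125 genes DESeq2 called. It passed the expression filter through the dopamine libraries alone, so nothing is read from its direction or from this call.

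Six3 (ENSMUSG00000038805.9, chromosome 17, 85613608 to 85629302, plus strand) was at 19.8 and 13.1 CPM in datL, 0.0734 and 0.790 CPM in datM, 27.4 CPM in Lateral and 20.5 CPM in Medial, against 0.339 and 0.377 CPM in serotonin. Otx1 (ENSMUSG00000005917.9, chromosome 11, 21994764 to 22002897, minus strand) was at 5.46 and 0.916 CPM in datL, 9.76 and 0 CPM in datM, 18.6 CPM in Lateral and 118 CPM in Medial, against 0.848 and 0.343 CPM in serotonin. Each gene was therefore low in at least 1 datM library and high in both dopamine libraries of lane 8. Over all 8 libraries neither had an unadjusted p under 0.05 (log2 fold changes of 5.33 with SE 2.69 for Six3 and 5.38 with SE 2.90 for Otx1). Six3 shares 106 exon bases with Six3os1 on the opposite strand, and counting ignored strand, so reads there cannot be assigned to either.

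Barhl1 overlapped, at 0 to 15.4 CPM in dopamine libraries, against 0.0339 and 2.16 CPM in serotonin. Dmbx1, a midbrain gene, had 1 count in datL replicate 2 among dopamine libraries, against 0 and 4 counts in serotonin. Summed markers of 2 other cell classes, radial glia with astrocytes and red blood cells, were also higher in every dopamine library, and 2 further sums overlapped. Of 4 forebrain and hypothalamus markers, 1 or 2 were counted in each dopamine library. Their summed levels were 0.0881 to 44.3 CPM in dopamine libraries, against 0.238 and 0 CPM in serotonin, with overlap. All 5 markers of radial glia and astrocytes were counted in every library, with sums of 1715 to 3514 CPM in dopamine and 604 and 760 CPM in serotonin. The 3 red blood cell markers summed to 41.8 to 230 CPM in dopamine libraries, against 12.2 and 15.8 CPM in serotonin. The 3 GABA neuron markers summed to 50.2 to 770 CPM in dopamine libraries, against 109 and 157 CPM in serotonin, with overlap. Their part in the Otx1, Six3 and Barhl2 values was not tested.

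**Figure D3:**
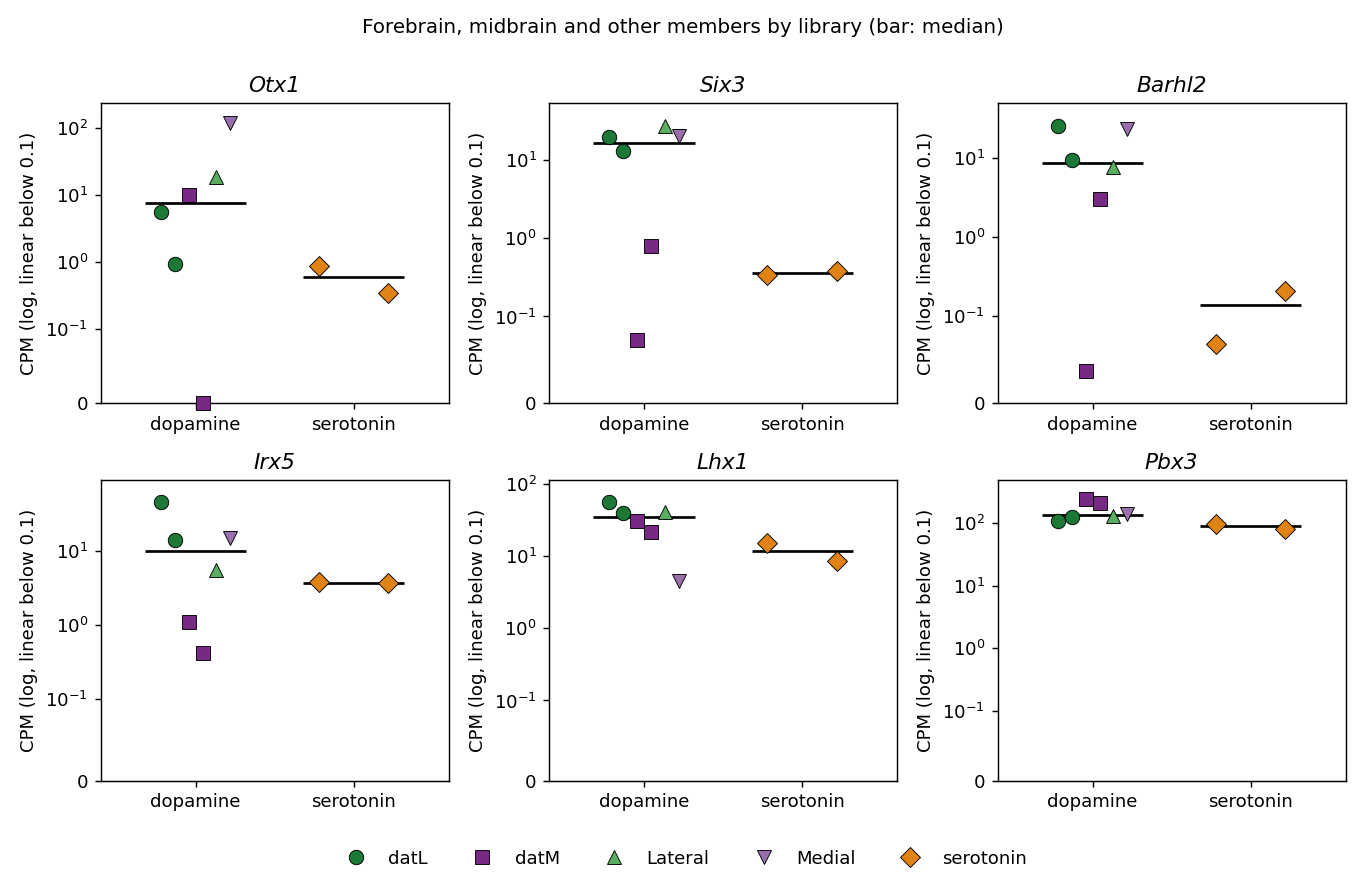
CPM of Otx1, Six3, Barhl2, Irx5, Lhx1 and Pbx3 in each library, on a log axis that is linear below 0.1 CPM, with 1 point per library and bars at the group medians, dopamine left of serotonin. Pbx3 is the panel in which no point of the groups overlaps. Otx1 reaches 118 CPM in Medial, and Six3 and Barhl2 are near 0 in at least 1 datM library.

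Within lane 8, where both neuron types were sequenced together, Otx1, Six3 and Barhl2 had lower unadjusted p-values than over all 8 libraries. In that run only the dopamine libraries, Lateral and Medial, carry the day 18 mark, which cannot be told apart from neuron type. No member passed an adjusted p of 0.05, against 0.0224% of 13400 genes. At an unadjusted p under 0.05, 3 of 28 members were higher in dopamine (Otx1, Six3, Barhl2) and 5 were lower (Hoxa2, Hmx2, Hmx3, Phox2a, Meis1), against 13.8% of all genes in either direction. As over all 8 libraries, the lower ones other than Meis1 could enter the test through serotonin only. Barhl2, with 2 and 6 counts in the serotonin libraries, could enter it through dopamine only. The direction of these genes was set by the filter. Six3, with 10 and 11 serotonin counts, and Otx1, with 25 and 10, also had few counts there. The share of all genes in each direction is not given for this run, so nothing is read from the higher or the lower count. The log2 fold changes were 6.70 for Otx1 (SE 1.20, edgeR adjusted p = 0.273), 5.97 for Six3 (SE 1.14, adjusted p = 0.273) and 6.70 for Barhl2 (SE 1.61, adjusted p = 0.281). In levels, 6 of 36 members (16.7%) lay above both serotonin libraries in both dopamine libraries, against 19.6% of all genes. For the opposite order it was 7 members (19.4%), against 20.1% of all genes. Both shares are near the background of this small comparison. The 7 lower members were the same as over all 8 libraries, and the 6 higher were Pbx3, Irx5, Otx1, Six3, Barhl2 and Lhx5.

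**Figure D4:**
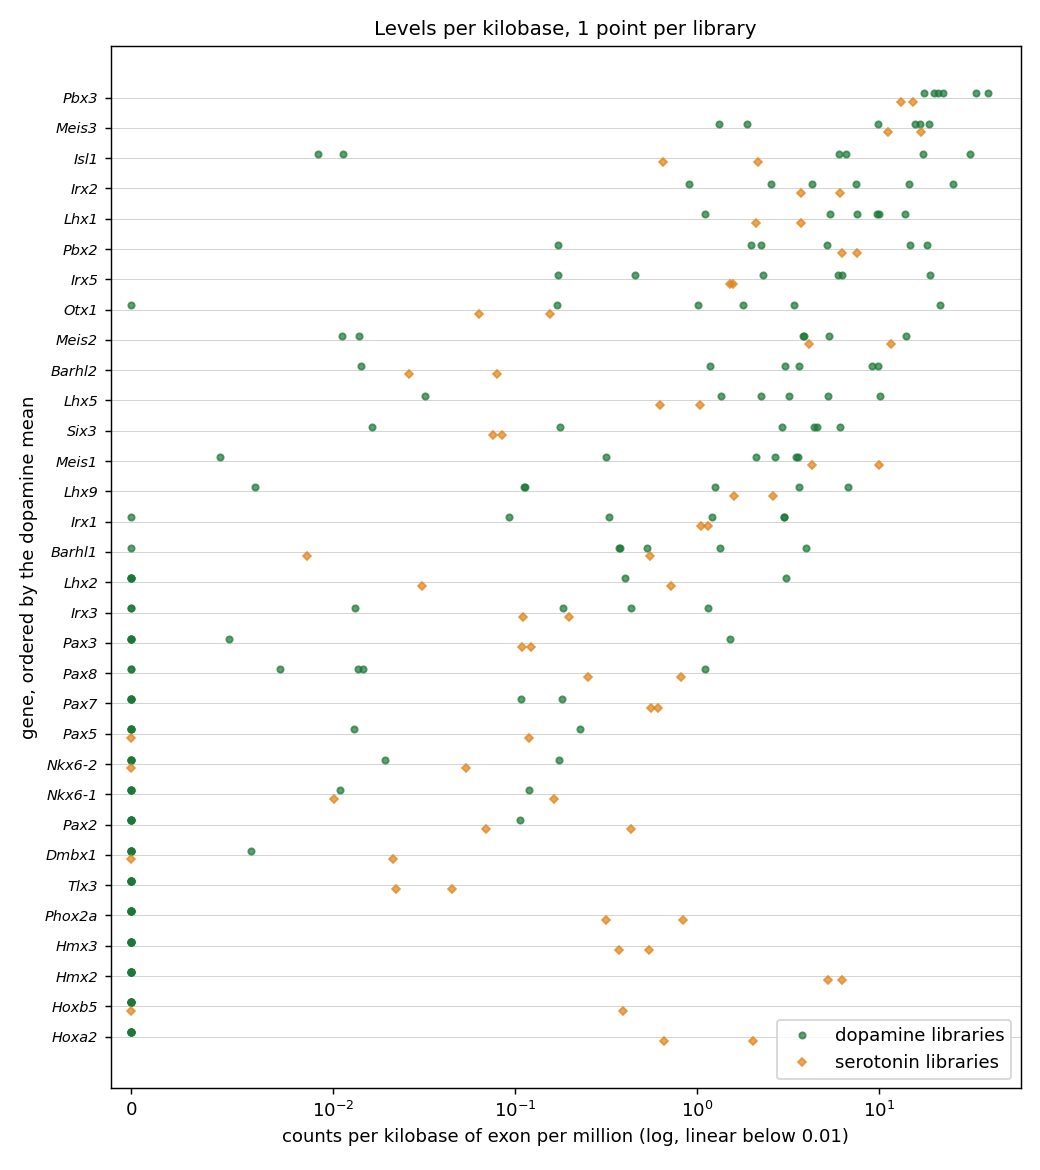
Level per exon length of 32 members in CPM per kb, on a log axis that is linear below 0.01, with 1 point per library and genes ordered by their dopamine mean. Pbx3 and Meis3 have the highest mean in both groups, and the dopamine points of Hmx2 and Hoxa2 are all at 0.

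Between lateral-type and medial-type dopamine libraries, 2 of 36 counted members (5.56%) were higher in every lateral-type library, against 2.81% of all genes. They were the LIM homeobox genes Lhx1 and Lhx9. In this comparison no member passed an adjusted p of 0.05 by edgeR, against 1 of 13806 genes (0.00724%), and 832 genes (6.03%) had an unadjusted p under 0.05. At an unadjusted p under 0.05, 3 of 28 members were higher in lateral-type libraries, Lhx9, Lhx2 and Pax7, against 4.45% of all genes, and 1 was lower, Nkx6-1, against 1.57%. Lhx2 and Pax7 had 0 counts in every medial-type library, and Nkx6-1 in every lateral-type library. In the fit of the 6 dopamine libraries none of these 3 passed the expression filter. Lhx2 and Nkx6-1 passed it here only with help from the dopamine type that counted them, so nothing is read from these shares. Of the members, 19 had a positive fold change, 5 a negative one, and 4 were at 0 in all dopamine libraries. The positive ones include Lhx2, Pax2 and Pax7, at 0 in every medial-type library. The share of positive values among all genes is not given, so nothing is read from these signs. The median log2 value was 1.24, against 0.03 for all genes. All 5 LIM genes were positive, with a median of 3.12.

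Lhx9 (ENSMUSG00000019230.8, chromosome 1, 138825186 to 138848576, minus strand), a LIM gene of diencephalic and midbrain neurons, was at 8.504 and 46.0 CPM in datL and 24.6 CPM in Lateral, against 0.771 and 0.0416 CPM in datM and 0.758 CPM in Medial. Every lateral-type library was above every medial-type library, in the October run and in lane 8. The means were 26.4 ± 18.8 CPM in lateral-type and 0.524 ± 0.417 CPM in medial-type libraries (SD, n = 3 each). The log2 fold change was 5.76 (SE 1.92, edgeR unadjusted p = 0.0123, adjusted p = 0.770). DESeq2 gave 5.74 with an adjusted p of 0.000509, and Lhx9 was the 1 member among the 232 genes it called. The serotonin libraries, at 10.9 and 17.7 CPM, stood at the lateral-type level.

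Lhx1, a LIM gene of early interneurons, was also without overlap. It was at 56.8 and 39.7 CPM in datL and 40.9 CPM in Lateral, against 30.9 and 21.9 CPM in datM and 4.51 CPM in Medial. The gap was narrow, and the log2 fold change of 1.30 (SE 1.08) had an unadjusted p of 0.257 and an adjusted p of 1.0 by edgeR. With single libraries left out, members of other families joined Lhx1 and Lhx9 above in every lateral-type library, among them Meis2, Meis3, Pax7 and Pax8. Lhx2, a selector gene of the dorsal forebrain and thalamus, was at 0 and 13.5 CPM in datL and 1.78 CPM in Lateral, against 0 counts in all 3 medial-type libraries. It was at least 123-fold higher in lateral-type libraries (edgeR unadjusted p = 0.0305, adjusted p = 0.770). One library carried this: the bound was 25.9-fold without datL replicate 2 and 177-fold without Lateral.

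Isl1, known from motor, sensory and hypothalamic neurons, was at 69.2 and 125 CPM in datL and 24.0 CPM in Lateral, against 0.0367 and 26.2 CPM in datM and 0.0446 CPM in Medial. The groups overlapped because datM replicate 2 stood above Lateral, and the log2 fold change was 3.12 (SE 1.97, edgeR unadjusted p = 0.142, adjusted p = 0.925). Lhx5, a partner of Lhx1 in early interneurons, was at 26.6 and 5.91 CPM in datL and 8.34 CPM in Lateral, against 13.7 and 0.0832 CPM in datM and 3.52 CPM in Medial, again with overlap. In dopamine against serotonin all 5 LIM genes were positive, with a median log2 fold change of 1.64, and none had an unadjusted p under 0.05.

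Markers of other cell classes were read beside the LIM genes. All 3 markers of GABA neurons were counted in at least 2 libraries of each type, and their summed levels were 308 and 551 CPM in datL and 770 CPM in Lateral, against 50.2 and 131 CPM in datM and 383 CPM in Medial. These sums overlapped, since Medial was above datL replicate 1, and none of the 3 genes had an unadjusted p under 0.05 by edgeR. All 3 had positive fold changes, and 1 of them lay higher in every lateral-type library, as Lhx1 and Lhx9 did. None of the 3 markers was at 0 in a medial-type library, and Gad1 fell as low as 0.208 CPM in datM replicate 2. Zic2 and Zic4, from the list of cerebellar and rhombic lip markers, were counted in all 3 lateral-type libraries and at 0 in all 3 medial-type libraries. Of the 3 tested genes of that list, these 2 had positive fold changes and 1 had a negative one. The summed level of that list of 4 was 40.3 and 35.2 CPM in datL and 20.3 CPM in Lateral, against 9.83 and 0 CPM in datM and 1.03 CPM in Medial. The 5 markers of radial glia and astrocytes summed to 3222 and 1715 CPM in datL and 1794 CPM in Lateral, against 3514 and 2305 CPM in datM and 2674 CPM in Medial. Among them Slc1a3 and Nes were lower in every lateral-type library, with edgeR unadjusted p-values of 0.0368 and 0.00239. The part of these cell classes in the LIM results was not tested.

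Pax7 was at 1.06 and 0 CPM in datL and 0.632 CPM in Lateral, against 0 counts in all 3 medial-type libraries, a level at least 13.5-fold higher in lateral-type libraries (edgeR unadjusted p = 0.0341, adjusted p = 0.770). The bound was 8.68-fold without datL replicate 1. Nkx6-1 ran the other way, with 0 counts in all 3 lateral-type libraries, against 1 count in datM replicate 1, 9 in Medial and none in datM replicate 2. It was at least 3.71-fold lower in lateral-type libraries (edgeR unadjusted p = 0.0362, adjusted p = 0.770). Both rest on few counts in 2 libraries, and without Medial a single count of Nkx6-1 is left. Pbx3 lay lower in every lateral-type library, at 109 and 123 CPM in datL and 129 CPM in Lateral, against 241 and 208 CPM in datM and 137 CPM in Medial. It was 1 of 36 members (2.78%) in that order, against 3.03% of all genes, with a log2 fold change of -0.64 (SE 0.46, edgeR unadjusted p = 0.194, adjusted p = 0.991). On CPM scaled with TMM factors its groups overlapped. Meis2 was at 168 and 46.0 CPM in datL and 63.6 CPM in Lateral, against 46.5 and 0.166 CPM in datM and 0.134 CPM in Medial, and overlapped by the narrow gap between datM replicate 1 and datL replicate 2 (edgeR unadjusted p = 0.159, adjusted p = 0.952).

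**Figure D5:**
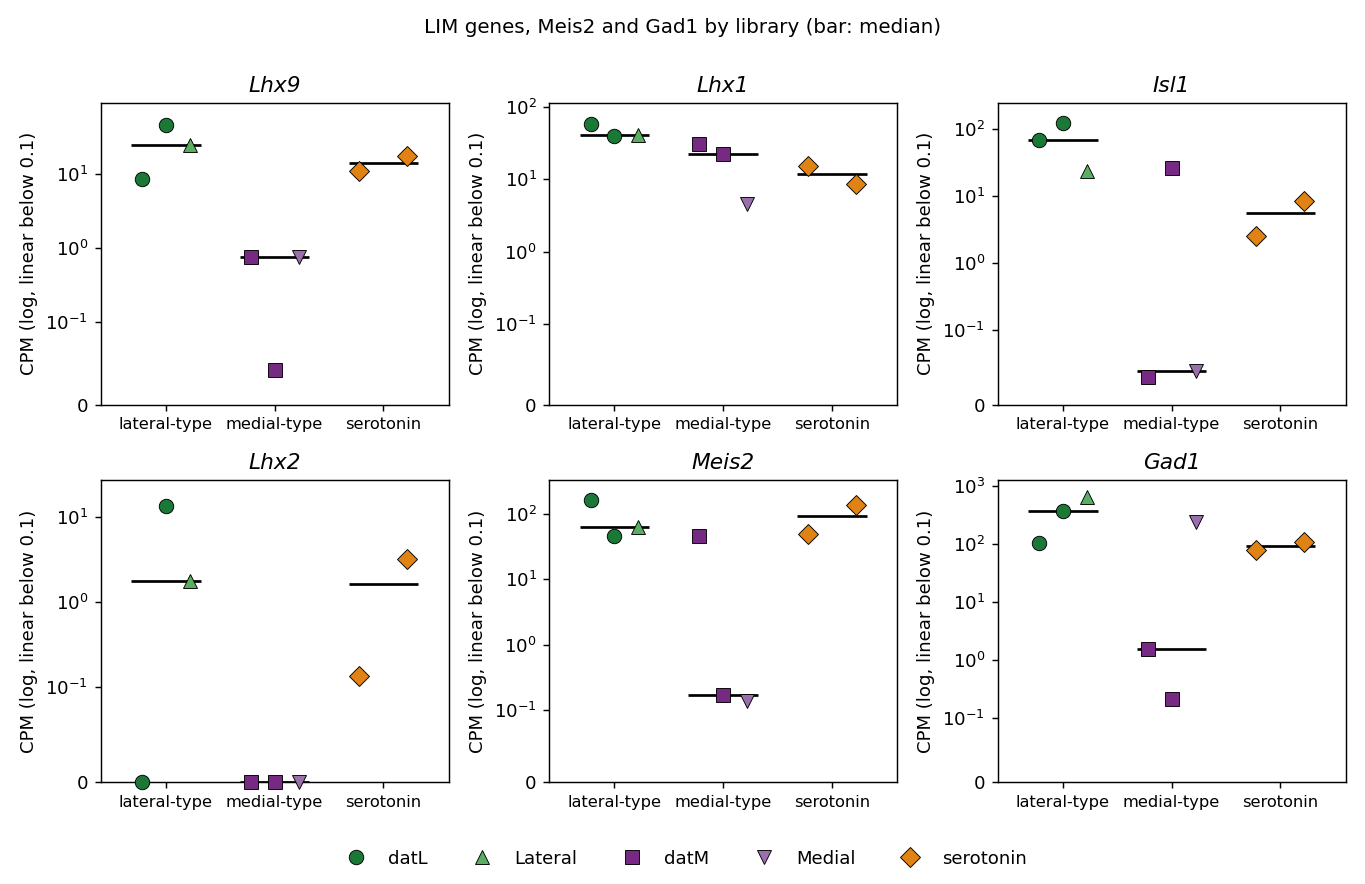
CPM of Lhx9, Lhx1, Isl1, Lhx2, Meis2 and the GABA marker Gad1 in each library, on a log axis that is linear below 0.1 CPM, with 1 point per library and bars at the group medians, in the order lateral-type, medial-type, serotonin. Lhx9 is under 1 CPM in all 3 medial-type libraries, while the serotonin points lie within the lateral-type range.

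Other patterning genes around these families were read from further lists. Hoxd1, a Hox gene outside the members, had 1 count in Medial and 0 in the 5 other dopamine libraries, against 0 and 25 counts in serotonin replicates 1 and 2. Of 6 tested genes of the midbrain and isthmus, none had an unadjusted p under 0.05. En1 had a log2 fold change of -0.21 (SE 0.58). The midbrain gene Otx2, added with its values known, was at 0 to 34.2 CPM in dopamine libraries (median 1.03), against 4.07 and 3.81 CPM in serotonin. Of 8 tested hindbrain segment and retinoid genes, 2 were lower in dopamine libraries at an edgeR unadjusted p under 0.05, against 1.9% of all genes. None was lower at an adjusted p under 0.05. Cyp26b1, which breaks down retinoic acid, had 6 counts in Lateral and 0 in the 5 other dopamine libraries, against 269 and 1009 counts in serotonin (edgeR unadjusted p = 0.00308, adjusted p = 0.348). Gata2, needed for serotonin neurons, was at 0 to 24.2 CPM in dopamine libraries, against 122 and 159 CPM in serotonin (edgeR unadjusted p = 0.04996, adjusted p = 1.0). Cyp26b1, like Hoxa2 and Hmx2, passed the expression filter through the serotonin libraries alone. Its direction was set by the filter, so nothing is read from it.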

How the data were processed

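The authors deposited raw counts per gene, 1 table per library. STAR and the mm10 build are named in the submitters' processing notes. Per the file headers, featureCounts 1.4.3-p1 made the counts and ignored strand. The cDNA went through long-distance PCR before sequencing as 100 bp single reads, per the labels' protocols. Counts carry no molecular identifiers, so intervals and floors cover counting error only.

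Dopamine was compared with serotonin (6 libraries against 2), and lateral-type with medial-type libraries in a fit of 3 groups, with edgeR 4.0.16 (R 4.3.3) and its two-sided quasi-likelihood test. Libraries were scaled with TMM, low genes were removed with filterByExpr, and p-values were adjusted after Benjamini and Hochberg over the 13806 genes left, at a threshold of 0.05. Standard errors came from the fold change and the test statistic. DESeq2 1.42.0, limma-voom (limma 3.58.1), other scalings, filters and library sets, and leaving out each library, were alternatives.

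The members and lists were chosen with earlier results of these data known. Full statistics are given for members with an unadjusted p under 0.05 in either comparison, or without overlap and a mean of at least 1 CPM; from other lists, at most 4 genes by smallest p. Of the 42 members found, 28 passed the filter in each comparison. The method was tested on simulated data with less spread between libraries than the replicates show here, and without genes of the lowest levels. That test therefore does not cover the spread of these libraries or members near 0. Some genes of these lists are not reported here.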

Additional observations from a re-analysis of the deposited data

Results flagged for a closer look

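Among the 6 dopamine libraries, 9 of 24 members with at least 10 counts in one of them (37.5%) had a library that stood apart by Dixon's test of the gap to the nearest library over the whole range. The same held for 31.3% of 14702 genes with such counts. The test's threshold is set to flag about 1 of 20 by chance when values are normally distributed. CPM with several libraries at 0 are not, so that rate is no measure of chance here. The libraries concerned were datL replicate 1 for Irx5 (45.8 CPM, next highest 15.03) and Barhl1 (15.4 CPM, next 5.25), and datL replicate 2 for Lhx2 (13.5 CPM, next 1.78). Medial stood apart for Otx1 (118 CPM, next 18.6) and Pax3 (9.37 CPM, next 0.0301). Lateral stood apart for Pax2 (0.572 CPM, next 0), Pax5 (0.783 CPM, next 0.0446), Pax8 (6.71 CPM, next 0.0881) and Nkx6-2 (0.331 CPM, next 0.0367). No member had datM as its outlying library.

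For 4 of the 24 members (16.7%) both datL libraries were above both datM libraries, while Lateral was below Medial. Of the 14702 genes, 12.1% showed an opposite order of this kind, in either direction. The order was the same in both runs for 5 of the 24 members (20.8%), against 12.8% of the 14702 genes. Mean datL minus datM was 51.4 CPM for Meis3, 27.2 CPM for Pbx2, 29.3 CPM for Irx5 and 16.0 CPM for Barhl2. Lateral minus Medial was -18.7 CPM for Meis3, -48.0 CPM for Pbx2, -9.49 CPM for Irx5 and -15.8 CPM for Barhl2. The difference between the runs was tested as an interaction in edgeR. Its unadjusted p was 0.0689 for Meis3, 0.164 for Pbx2, 0.1002 for Irx5 and 0.284 for Barhl2, each with an adjusted p of 1.0.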

How the results depend on the processing

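Between dopamine and serotonin, the 0 genes past the threshold became 125 by DESeq2, 14 by limma-voom, 3 within lane 8, 2 for datL and datM against serotonin, 2 in the fit of 5 groups, and 0 to 1 leaving out each library. The replicate block left 0 genes and 0 members, and replicate numbers paired no samples: deviations of same-numbered libraries correlated at 0.101, 0.0153 and -0.0037. Among members, 1 was called by DESeq2 (Barhl2) and 1 by limma-voom (Hmx2), and none by the other alternatives. Each of these 2 passed the expression filter through 1 group alone. Between lateral-type and medial-type libraries, the 1 gene past the threshold became 232 by DESeq2 and 0 by limma-voom, with the replicate block, with run as a term, in the 6 dopamine libraries, for datL against datM, and leaving out any library. DESeq2 called 1 member (Lhx9). Members with every dopamine library above numbered 6 in lane 8, 2 for datL and datM against serotonin, and 1 to 3 leaving out each library (3 without either datM library, 2 without Medial). Members with every dopamine library below numbered 7 to 12, with 12 without serotonin replicate 1. Leaving out each library gave 3 to 7 members with every lateral-type library above, 7 of them without Medial, 5 without datL replicate 2 and 4 without Lateral or datM replicate 1. Those with every one below numbered 1 to 2 (2 without datL replicate 1 or datM replicate 2), and 0 on TMM-scaled CPM. The causes were not tested. Fold changes of the 16 member results followed under the alternatives kept their sign in every one that gave a value. The sign could not change for genes with 0 counts in a whole group. It could hardly change for genes chosen because their groups did not overlap, so nothing is read from this. At these depths a gene under 3 counts in a library cannot be told from an absent one, and the tests rest on 2 serotonin libraries.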
